A study of Mus musculus with 20 samples.

Results

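The immunoglobulin genes were followed through 4 populations of cells sorted from adult mice. They were taken as every probe set whose gene symbols include one starting with Igh, Igk, Igl or Vpreb, or Jchain, leaving out Ighmbp2, a DNA-binding protein that is no antibody gene. The rule reads the array's probe annotation and no measured value, although these genes were chosen for description with earlier results of these data known. It gave 84 of the 12488 probe sets on the array, with 40 distinct immunoglobulin symbols. By class there were 28 probe sets of heavy chain constant genes, 9 of heavy chain variable genes, 36 of kappa light chain genes and 2 of lambda light chain genes. A further 2 had both heavy variable and constant symbols, 6 fell in a surrogate light chain class and 1 was of the J chain. The surrogate light chain class holds Igll1, Vpreb1 and also Vpreb3, a relative of Vpreb1. Probe sets rather than genes were the unit, because antibody genes resemble each other and their probes can bind related transcripts. The array's own naming marks this for 40 of the 84, of which 35 carry the suffix f for a sequence family, and 3 others carry the suffix r, which marks relaxed probe selection rules.

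Antibodies are built of paired heavy and light chains, and each chain gene is assembled in developing B cells by joining variable, diversity and joining segments (V(D)J recombination). In the bone marrow a B cell precursor first makes a mu heavy chain, encoded by Ighm, and pairs it with a surrogate light chain. Genes of the surrogate light chain include Igll1 and Vpreb1. The precursor then rearranges a kappa or lambda light chain gene and becomes a B cell with surface IgM. Plasma cells secrete antibody, and the J chain links IgM and IgA units into polymers.

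The mice were adult animals of the inbred strain C57BL/10SnJ, with no treatment named, and both tissues, skeletal muscle and bone marrow, share this background. From each tissue there were 5 arrays of side population (SP) cells, which export a DNA-binding dye and keep little of it, and 5 arrays of main population (MP) cells, which keep it. Total RNA was measured on 20 Affymetrix arrays, and values are log2 of the quantile normalized signal with a floor at 6.71, so a printed 6.71 is a value at the floor. Differences are means of log2 values ± the standard error of the fit, n = 5 arrays a group, with limma p-values adjusted over all 10310 probe sets tested. Nothing in the labels places the arrays of a group in separate animals or sorts, so the p-values speak only to how far these samples spread, and that spread can be technical. Marker lists of other cell types differed between the groups: a granulocyte list had mean levels of 13.2 to 15.1 on marrow arrays and 7.36 to 11.7 on muscle arrays, and an endothelial list 7.72 to 9.63 and 12.5 to 13.3. The 3′ to 5′ log2 ratio of the GAPDH control probe sets, a sign of RNA quality that rises with degradation, was 3.83 ± 0.61 in muscle SP and 2.66 ± 0.62 in muscle MP (SD, n = 5, exact two-sided permutation p = 0.0238, adjusted 0.0397), and 3.72 ± 0.60 in marrow SP and 2.67 ± 0.72 in marrow MP (exact p = 0.0397, adjusted 0.0397). The array muscle SP 1 had the highest ratio, 4.79, and its median over the 64 immunoglobulin probe sets tested was 8.12 against 7.35 to 7.49 on the other muscle SP arrays. On bone marrow SP 5 the kappa constant and Igkv6-23 probe sets were low.

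Promoter sequence from RefSeq (mouse build GRCm38.p6) was on hand for 4 of the 40 symbols, Jchain, Vpreb3, Igll1 and Vpreb1, which also hold the results on developing and secreting B lineage cells. Each sequence runs from 250 bases before to 50 bases after the annotated start, 5′ to 3′ on the gene's strand, and capitals mark a match to the octamer ATGCAAAT or the E-box CAGGTG on either strand.
Jchain: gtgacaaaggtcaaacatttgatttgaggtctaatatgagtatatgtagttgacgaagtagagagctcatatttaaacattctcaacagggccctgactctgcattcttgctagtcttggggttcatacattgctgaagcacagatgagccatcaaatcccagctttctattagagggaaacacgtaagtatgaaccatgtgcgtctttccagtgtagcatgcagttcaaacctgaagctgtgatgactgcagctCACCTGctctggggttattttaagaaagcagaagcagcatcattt
Vpreb3: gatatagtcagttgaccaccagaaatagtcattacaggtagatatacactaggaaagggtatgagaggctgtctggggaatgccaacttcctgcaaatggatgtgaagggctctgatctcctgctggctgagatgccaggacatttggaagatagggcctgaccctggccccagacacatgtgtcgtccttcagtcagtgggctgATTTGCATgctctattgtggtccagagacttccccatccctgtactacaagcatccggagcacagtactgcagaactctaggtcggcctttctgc
Igll1: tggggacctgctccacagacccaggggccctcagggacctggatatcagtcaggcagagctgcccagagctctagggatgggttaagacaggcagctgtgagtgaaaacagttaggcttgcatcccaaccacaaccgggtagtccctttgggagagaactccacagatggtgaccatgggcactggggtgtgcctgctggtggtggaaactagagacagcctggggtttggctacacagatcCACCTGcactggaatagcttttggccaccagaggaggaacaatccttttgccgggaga
Vpreb1: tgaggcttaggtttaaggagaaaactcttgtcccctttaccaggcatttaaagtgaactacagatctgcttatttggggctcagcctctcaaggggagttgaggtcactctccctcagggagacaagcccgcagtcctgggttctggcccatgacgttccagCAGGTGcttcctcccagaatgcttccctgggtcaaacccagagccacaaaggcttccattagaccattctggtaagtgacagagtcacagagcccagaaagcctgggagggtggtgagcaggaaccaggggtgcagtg
They lie at chr5:88527848-88528147 on the minus strand (Jchain), chr10:75948050-75948349 on the plus strand (Vpreb3), chr16:16863936-16864235 on the minus strand (Igll1) and chr16:16869206-16869505 on the minus strand (Vpreb1). The octamer is the motif bound by Oct factors in antibody gene promoters. It was found in the Vpreb3 window, on the opposite strand from base -45, and 1.74% of 32851 promoter windows of the same length hold it. The E-box, a motif bound by E proteins, was found from base 6 in Jchain and from base -8 in Igll1, both on the opposite strand, and from base -88 in Vpreb1. It is common, with 20.2% of windows holding it. The motif of the early B cell factor EBF1 (TCCC and GGGA with any 2 bases between), held by 0.904% of windows, had no match, which says only that these letters are not in these 4 windows.

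SP and MP cells were compared within each tissue, and no immunoglobulin probe set passed the test as higher in SP cells in either tissue. Of the 84 probe sets, 64 passed the filter on low values and 20 were not tested. In muscle 4 of 64 were lower in SP and 0 higher, where 6.64% of all probe sets tested were lower and 5.10% higher. At an unadjusted p under 0.05 in limma, 4 were lower and 5 higher. In bone marrow 19 of 64 were lower in SP and 0 higher, against 14.8% lower and 15.4% higher of all probe sets, and 12 of the 19 had no overlap between the arrays of the groups, where 9.61% of all probe sets tested were lower without overlap. Of the 19, 3 (Ighm 99885_at, Vpreb1 92972_at and the lambda probe set 93638_s_at) passed the filter on low values only through the marrow MP arrays on which they were high, so their calls are no support, and 16 were called besides them. The 12 without overlap include 99885_at and 93638_s_at, so that count is not free of them. The unadjusted counts there were 22 lower and 1 higher. The median difference of the 64 was 0.11 in muscle and -0.29 in marrow, and over all probe sets it was 0.03 and 0.02. These counts depend in part on the scaling: on the authors' signals with no further normalization 4 members were higher and 11 lower in marrow SP, with the median of all probe sets at 0.31, and with median scaling 1 was higher and 4 lower in muscle SP. The 4 were Igkv1-135, Igkv2-112, Igkv8-30 (96992_r_at) and Ighg3 (97008_f_at), and the single one Igkv14-111 (100682_f_at), all named after their values were seen. The 4 probe sets lower in muscle SP, a count near the share of all probe sets, were 2 of Ighm and 2 of kappa genes. All 4 were among the 19 lower in marrow SP. How often probe sets lower in muscle SP were also lower in marrow SP was not counted over the whole array. In these bulk samples fewer B lineage cells and less RNA per cell cannot be told apart. Of the lists of cells outside the B lineage, those of macrophages and skeletal muscle moved in the same direction in muscle. The granulocyte, endothelial, T cell and erythroid lists did not. Of 7 granulocyte markers 0 passed the test, with 3 higher and 0 lower in muscle SP at an unadjusted limma p under 0.05. Of 5 endothelial markers 1 was higher and 0 lower in muscle SP. Of 8 T cell and 4 erythroid markers 0 passed. Of 6 macrophage markers 5 were lower in muscle SP and 0 higher, among them the mannose receptor Mrc1 with -2.96 ± 0.20 (adjusted p = 1.39e-09), and the mean of the 6 was 7.61 to 8.65 on muscle SP and 9.92 to 10.3 on muscle MP arrays, with Adgre1, the F4/80 antigen, at the floor on all muscle SP arrays. In marrow 3 of the 6 were lower in SP, with means of 9.13 to 9.85 in SP and 10.5 to 10.8 in MP. Of 5 skeletal muscle markers 2 were lower in muscle SP, with means of 8.47 to 9.31 against 10.2 to 10.8 in muscle MP. The part of these markers in the immunoglobulin results was not tested.

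**Figure D1:**
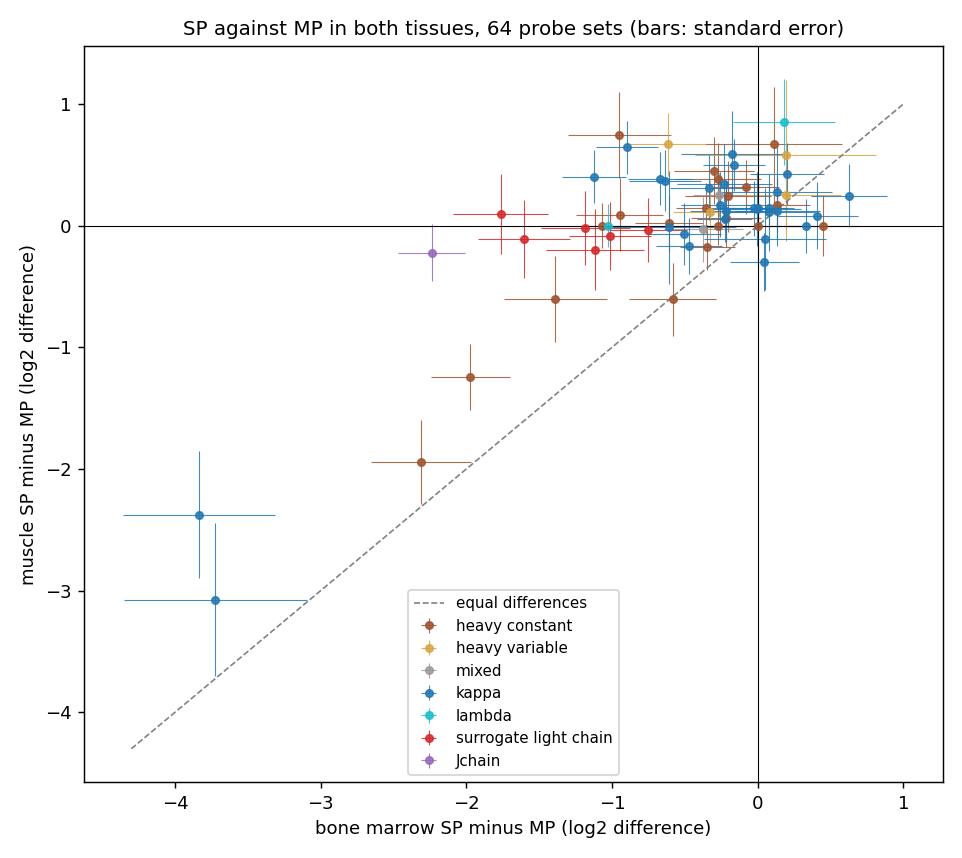
Each point is 1 of the 64 immunoglobulin probe sets tested, with the SP minus MP difference in log2 units in bone marrow on the horizontal axis and in muscle on the vertical axis, bars of 1 standard error and a broken line of equal differences. The 4 probe sets called lower in both tissues, of Ighm and kappa genes, lie at the lower left, while the surrogate light chain and J chain probe sets lie to the left with muscle differences of -0.22 to 0.10.

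The mu heavy chain was lower in SP than in MP cells of both tissues by 2 probe sets of Ighm, the constant gene of IgM. The probe set 93584_at read 7.55, 7.94, 8.16, 6.71 and 6.82 on the 5 muscle SP arrays and 8.81, 9.57, 8.89, 10.06 and 9.56 on the muscle MP arrays. In bone marrow it read 11.24, 10.62, 10.87, 10.26 and 9.45 in SP and 12.69, 12.13, 12.87, 13.52 and 12.80 in MP. The groups did not overlap in any of the 4 comparisons, and the order from low to high was muscle SP, muscle MP, marrow SP and marrow MP, although single arrays of muscle MP and marrow SP overlapped. SP differed from MP by -1.94 ± 0.34 (3.84-fold, adjusted p = 0.000565) in muscle and -2.31 ± 0.34 (4.97-fold, adjusted p = 2.1e-05) in marrow. The second probe set, 93583_s_at, gave 8.77, 8.95, 9.14, 8.84 and 8.67 in muscle SP and 9.41, 10.29, 9.93, 10.33 and 10.62 in muscle MP, a difference of -1.24 ± 0.27 (2.37-fold, adjusted p = 0.00357). Its marrow values were 11.26, 10.91, 11.15, 10.59 and 10.18 in SP and 12.64, 12.19, 12.84, 13.78 and 12.50 in MP, a difference of -1.97 ± 0.27 (3.92-fold, adjusted p = 7.73e-06). Its SP and MP values did not overlap in either tissue. The difference in muscle did not pass the test for 93583_s_at when the GAPDH ratio was a covariate (-0.81, adjusted p = 0.0965), while 93584_at kept its call in all alternatives run.

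The array held 16 probe sets labelled Ighm alone, and they did not behave alike: 10 were tested, 2 were lower in muscle SP and 5 in marrow SP. Whether each of them reads the mu constant region was not tested. Besides the pair above, 99885_at was at the floor on all 10 muscle arrays and on 4 of 5 marrow SP arrays, with 7.17 on the fifth. It read 7.24, 8.35, 7.93, 8.31 and 7.53 in marrow MP, without overlap, a difference of -1.07 ± 0.19, with no p given because it passed the filter only through the marrow MP arrays. The probe set 99420_at was above the floor on 1 marrow SP array and read 6.75, 8.14, 8.09, 6.99 and 8.68 in marrow MP, a difference of -0.95 ± 0.30 (1.93-fold, adjusted p = 0.019) with overlapping groups, and the call was lost in 5 of 20 alternatives. For 100362_f_at the marrow difference was -0.95 ± 0.35 (1.93-fold, adjusted p = 0.0462), again with overlap, and it was lost in 12 of 22. The other 5 tested Ighm probe sets, 100377_f_at, 101346_at, 101745_f_at, 97568_at and 97577_f_at, differed between SP and MP by -0.18 to 0.67 in muscle and -0.36 to 0.11 in marrow, and none passed the test in either tissue.

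Kappa light chains carried the largest SP to MP differences of the members called in either tissue. The probe set 93086_at holds Igkc, the kappa constant gene, beside variable and joining symbols. It read 9.86, 8.15, 8.79, 8.42 and 7.73 in muscle SP and 9.94, 12.17, 11.27, 12.74 and 12.19 in muscle MP, without overlap although muscle SP 1 lay just under muscle MP 1. In marrow it read 12.13, 12.58, 12.83, 11.55 and 8.45 in SP and 15.06, 14.77, 15.55, 15.69 and 15.08 in MP, and the SP array 5 lay far below its group. The difference was -3.07 ± 0.63 (8.42-fold, adjusted p = 0.00209) in muscle and -3.72 ± 0.63 (13.2-fold, adjusted p = 9.04e-05) in marrow. Igkv6-23, a kappa variable gene, was read by 102156_f_at at 6.71, 8.03, 7.00, 6.71 and 7.14 in muscle SP and 8.67, 9.47, 9.18, 10.51 and 9.64 in muscle MP. Its marrow values were 10.17, 10.12, 10.55, 9.59 and 6.71 in SP and 12.93, 12.58, 13.52, 14.08 and 13.20 in MP. Both tissues again showed no overlap, with differences of -2.38 ± 0.52 (5.20-fold, adjusted p = 0.00379) in muscle and -3.83 ± 0.52 (14.3-fold, adjusted p = 6.99e-06) in marrow. Without bone marrow SP 5 the marrow folds were 7.77 for 93086_at and 8.91 for 102156_f_at. The muscle difference of 102156_f_at was -1.57 with adjusted p = 0.100 once the GAPDH ratio was a covariate, and that of 93086_at kept its call in all alternatives.

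Of the 29 kappa probe sets tested, 2 were lower in muscle SP and 5 in marrow SP, and none was higher. The 3 called in marrow only were Igkv4-59 (101751_f_at), Igkv14-111 (100682_f_at) and a probe set labelled Igk (101641_at). Igkv4-59 read 7.78, 6.71, 7.34, 6.71 and 7.46 in marrow SP and 8.06, 8.49, 7.84, 8.80 and 8.45 in marrow MP, without overlap, a difference of -1.13 ± 0.22 (2.18-fold, adjusted p = 0.000424). Igkv14-111 differed by -0.90 ± 0.21 (1.86-fold, adjusted p = 0.00268) and 101641_at by -0.67 ± 0.22 (1.59-fold, adjusted p = 0.0237), both with overlapping arrays, and all 3 calls were absent with no further normalization. The other 4 probe sets that hold Igkc, all shared with Igkv4-59, ranged from -0.07 to 0.59 in muscle and from -0.63 to -0.01 in marrow, and none passed the test. They all carry the suffix f, so the differences of 93086_at and of these 4 are readings of different probes that partly share a name.

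**Figure D2:**
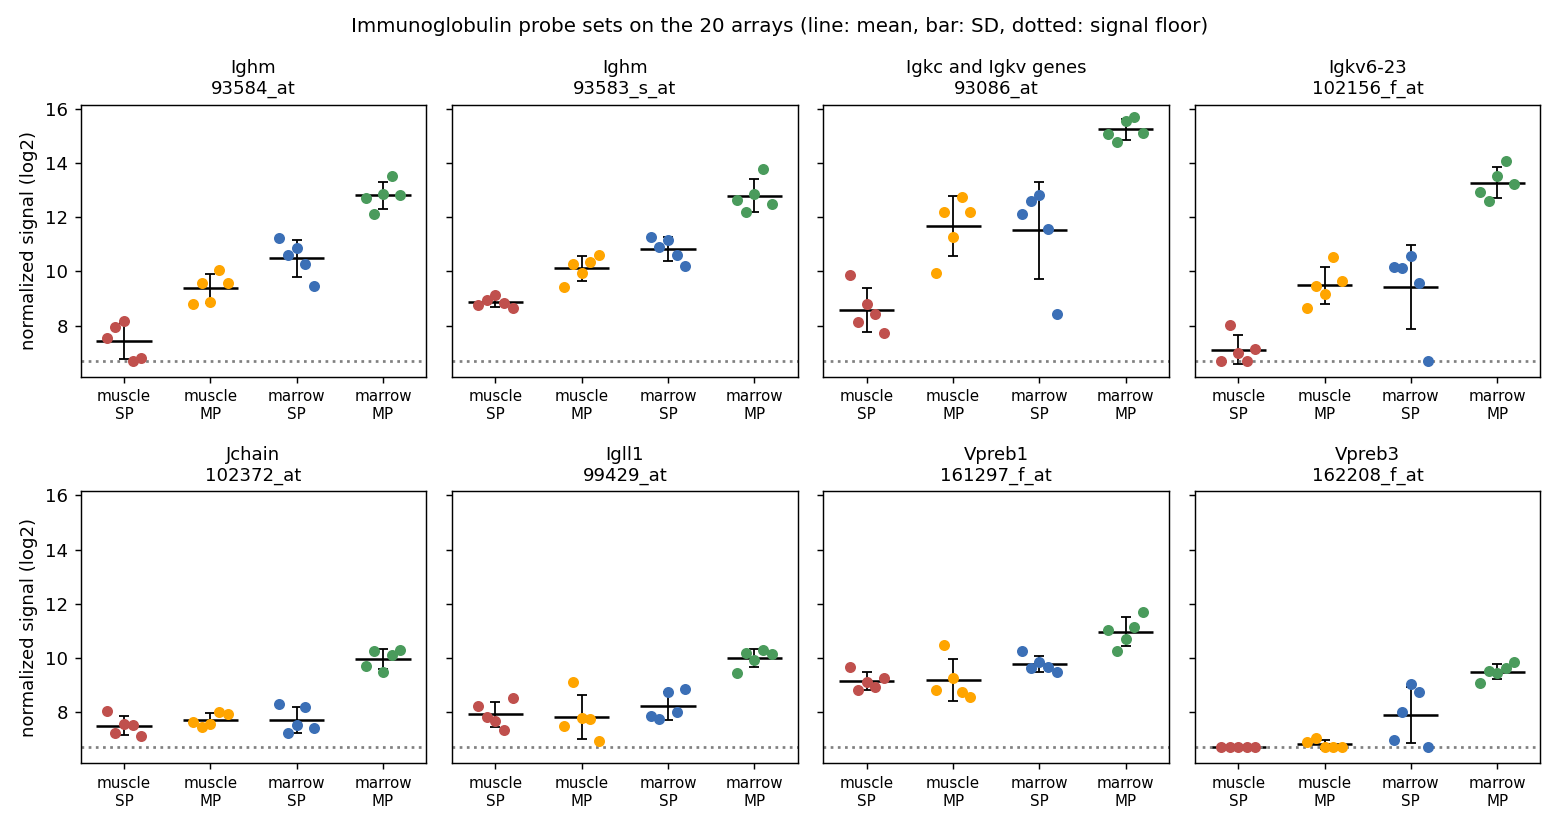
Each panel shows 1 immunoglobulin probe set, with the log2 signal of every array on the vertical axis and the 4 groups on the horizontal axis; points are arrays, the line is the group mean, the bar its SD (n = 5) and the dotted line the floor at 6.71. Mean Ighm and kappa values are lowest in muscle SP and highest in marrow MP, whereas the means of Jchain, Igll1 and the Vpreb genes are highest in marrow MP with overlapping values in both muscle groups.

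All 6 probe sets of Igll1, Vpreb1 and Vpreb3 were lower in SP than in MP cells of the marrow. Of these, 92972_at was tested only through its marrow MP values. In muscle 0 passed the test, also at an unadjusted limma p under 0.05. Igll1 and Vpreb1 encode the surrogate light chain, a mark of B cell precursors, and Vpreb3 is counted beside them as a relative. Igll1 encodes the constant-like part of the surrogate light chain, lambda5. Probe set 99429_at of Igll1 read 7.85, 7.76, 8.75, 7.998 and 8.88 in marrow SP and 9.45, 10.21, 9.95, 10.30 and 10.14 in marrow MP, without overlap. It read 8.24, 7.83, 7.67, 7.34 and 8.54 in muscle SP and 7.51, 9.14, 7.78, 7.76 and 6.95 in muscle MP. The difference was -1.76 ± 0.33 (3.39-fold, adjusted p = 0.000242) in marrow and 0.10 ± 0.33 in muscle (adjusted p = 0.913, 95% interval -0.58 to 0.77). The other Igll1 probe set, 99428_at, gave 8.30, 8.35, 8.23, 8.74 and 8.13 in marrow SP and 8.66, 9.30, 9.16, 9.47 and 8.93 in marrow MP, which overlap. Its difference of -0.75 ± 0.26 (1.68-fold, adjusted p = 0.0345) lost the call in 11 of 21 alternatives. The GAPDH ratio as a covariate was among them (limma adjusted p = 0.105). In muscle the difference of 99428_at was -0.04 ± 0.26 (95% interval -0.58 to 0.51).

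Vpreb1 encodes the variable-like part of the surrogate light chain. Its probe set 161297_f_at read 10.25, 9.65, 9.85, 9.69 and 9.50 in marrow SP and 11.04, 10.26, 10.71, 11.15 and 11.71 in marrow MP, just short of overlap. The difference was -1.19 ± 0.31 (2.27-fold, adjusted p = 0.0048) in marrow and -0.02 ± 0.31 in muscle (95% interval -0.65 to 0.61). The second Vpreb1 probe set, 92972_at, was at the floor on all 5 marrow SP arrays and read 6.95, 6.71, 7.66, 8.62 and 8.70 in marrow MP, so marrow SP was at least 2.02-fold lower. On muscle arrays 92972_at was above the floor once, at 7.13 on muscle MP 2, the array on which 161297_f_at had its highest muscle value of 10.48. Vpreb3, a relative of Vpreb1 expressed in B cells and their precursors, was read by 162208_f_at at 6.97, 8.03, 9.03, 8.76 and 6.71 in marrow SP and 9.07, 9.52, 9.44, 9.63 and 9.86 in marrow MP. The marrow SP arrays were spread widely and stayed below all MP arrays, with a difference of -1.60 ± 0.32 (3.04-fold, adjusted p = 0.000494). On muscle arrays this probe set was at the floor on all SP and 3 of 5 MP arrays. The other Vpreb3 probe set, 93957_at, differed by -1.12 ± 0.34 (2.17-fold, adjusted p = 0.0141) in marrow with overlap. The call was lost in 5 of 21 alternatives, among them the GAPDH ratio as a covariate (limma adjusted p = 0.130). In muscle the 2 Vpreb3 differences were -0.11 (95% interval -0.77 to 0.55) and -0.20 (-0.89 to 0.50).

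The J chain, a polypeptide of polymeric IgM and IgA, separated marrow MP cells from the other 3 populations. Jchain (102372_at) read 9.71, 10.25, 9.48, 10.11 and 10.31 in marrow MP and 8.30, 7.23, 7.53, 8.20 and 7.43 in marrow SP. It read 8.04, 7.25, 7.58, 7.55 and 7.12 in muscle SP and 7.66, 7.47, 7.58, 8.01 and 7.95 in muscle MP. Every marrow MP array lay above all 15 other arrays, whose values overlapped across the 3 groups. The SP to MP difference was -2.24 ± 0.23 (4.72-fold, adjusted p = 1.91e-07) in marrow and -0.22 ± 0.23 in muscle (adjusted p = 0.634, 95% interval -0.70 to 0.26).

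Among the constant genes of switched antibodies, only a probe set labelled Igha, the constant gene of IgA, passed the test in marrow. The annotation gives this probe set, 100583_at, the same source sequence as 92740_at and 92741_g_at, which are labelled Ighv14-2. Its reading as IgA therefore rests on the label. Igha (100583_at) read 7.67, 8.01, 6.71, 8.61 and 8.26 in marrow SP and 9.66, 9.58, 9.20, 8.73 and 9.04 in marrow MP, without overlap, a difference of -1.39 ± 0.35 (2.62-fold, adjusted p = 0.00422). With no further normalization its adjusted p was 0.0526. In muscle it read 8.54, 6.71, 7.98, 7.57 and 6.71 in SP and 8.59, 8.24, 7.44, 8.16 and 8.10 in MP, a difference of -0.60 ± 0.35 (adjusted p = 0.311). Of the other Igha probe sets, 161486_f_at was at the floor on all muscle arrays and 97009_f_at on 9 of 10, and neither passed the test in any comparison. Ighg3, the constant gene of the IgG3 subclass, was the label of 7 probe sets, and their reading as IgG3 likewise rests on the label. Of these, 5 were tested and 0 passed in either tissue (unadjusted limma p under 0.05: 0 in muscle and 1 lower and 0 higher in marrow), with SP to MP differences of -0.61 to 0.38 in muscle and -0.61 to 0.45 in marrow. The 1 probe set shared by Ighg3, Igha and Ighm, 97575_f_at, differed by 0.07 in muscle and -0.22 in marrow and did not pass either. Ighd, the constant gene of IgD, was above the floor on all 20 arrays, and 101157_at ranged over 10.11 to 11.79 in muscle SP, 9.84 to 10.39 in muscle MP, 9.87 to 10.75 in marrow SP and 9.99 to 11.03 in marrow MP. It passed the test in no comparison, with differences between -0.45 and 0.45 across the 4 comparisons between groups.

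Lambda light chains were read by 2 probe sets, which disagreed. The one that holds both Iglc1, a lambda constant gene, and Iglv1 (93638_s_at) was at the floor on all 15 arrays of the other populations and read 7.10, 7.71, 7.68, 8.47 and 7.72 in marrow MP. Marrow SP was at least 2.04-fold lower than marrow MP, with no p given because the marrow MP arrays alone carried it through the filter. The probe set of Iglc1 alone, 93639_r_at, with the suffix r, ranged over 7.50 to 8.52 in muscle SP, 6.71 to 7.73 in muscle MP, 6.71 to 8.42 in marrow SP and 6.71 to 8.37 in marrow MP and passed no test. Of the 9 heavy variable probe sets 4 were tested and 0 passed between SP and MP in either tissue. Their differences ranged from 0.11 to 0.67 in muscle and from -0.62 to 0.19 in marrow. At an unadjusted p under 0.05 the limma counts for heavy variable probe sets were 1 higher and 0 lower in muscle and 0 higher and 1 lower in marrow.

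**Figure D3:**
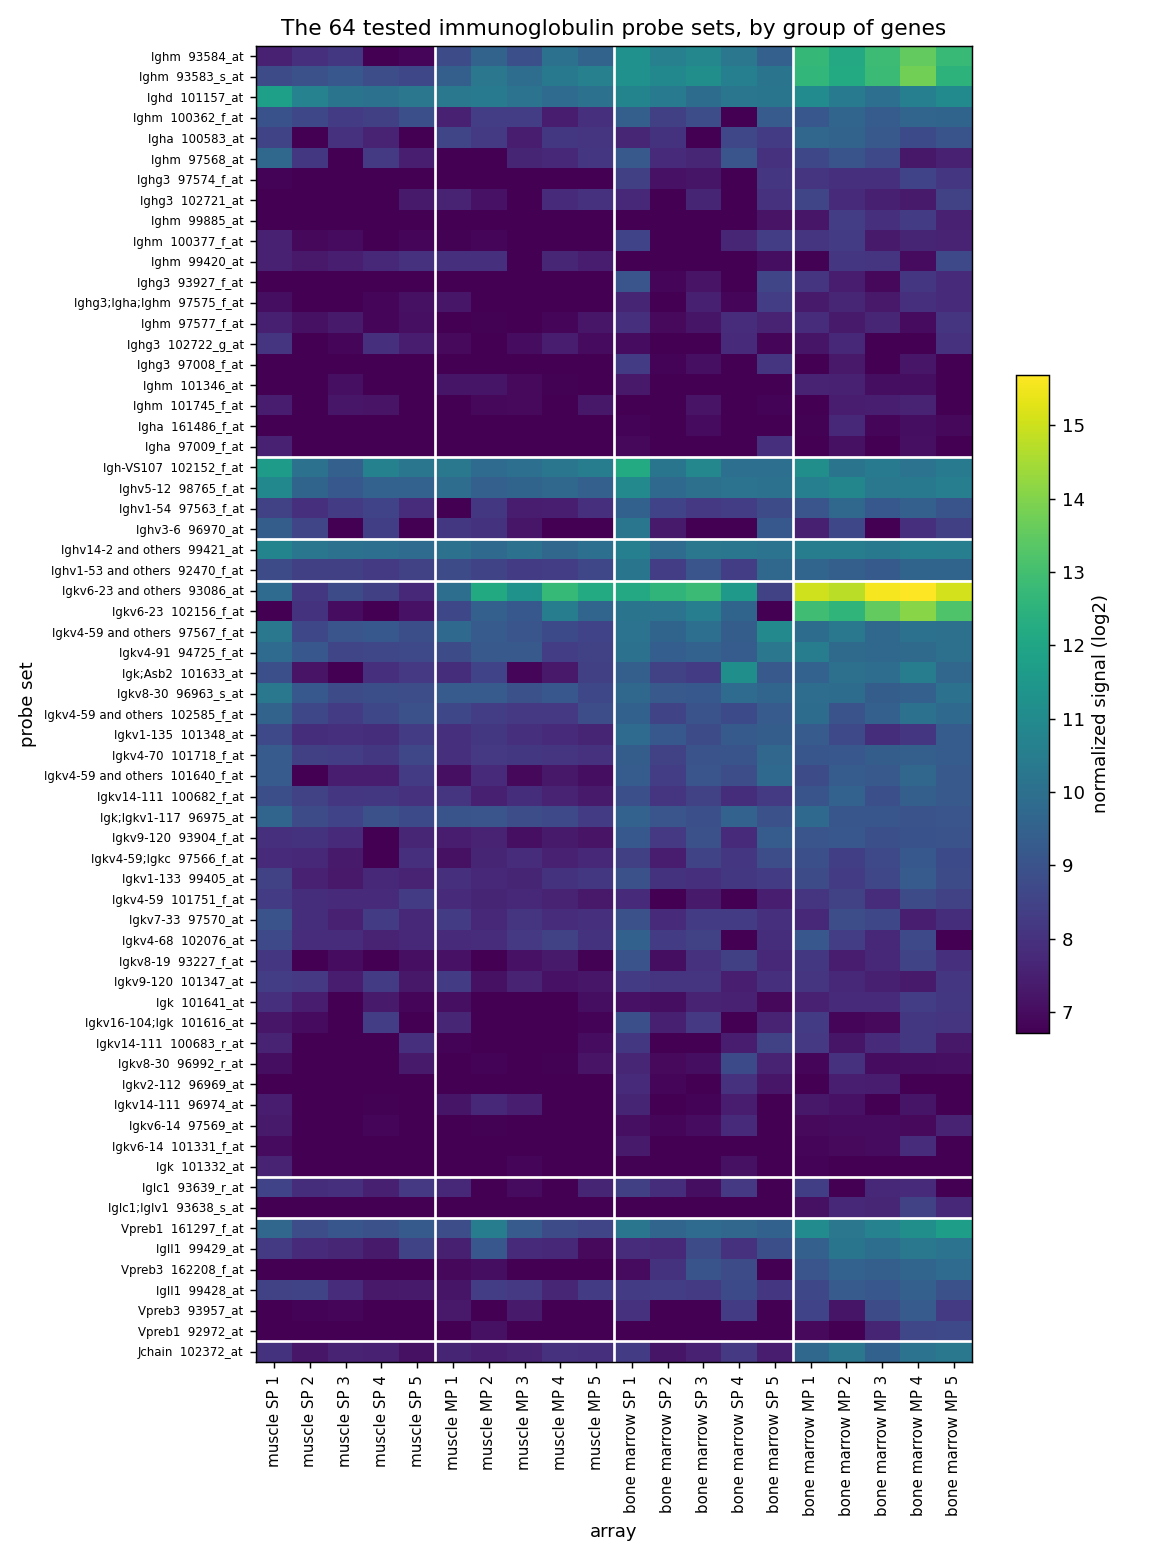
The heatmap gives the log2 signal of the 64 tested immunoglobulin probe sets (rows, grouped by class) on each of the 20 arrays (columns, grouped by population), with colour from the floor at 6.71 upward. The marrow MP columns are at the floor least often: counting the untested ones too, 51 of 84 probe sets were above the floor on all 5 of them, against 31 in muscle SP, 33 in muscle MP and 34 in marrow SP.

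Comparing the tissues within a sorted population, most members that passed were lower in muscle. Between MP cells the share of members lower in muscle was above that of all probe sets, and between SP cells it was near it. Between the MP populations 40 of 64 were lower in muscle and 0 higher, where 25.6% of all probe sets were lower and 20.9% higher, and 34 of the 40 had no overlap, where 19.9% of all probe sets were lower without overlap. Of these 40, 4 passed the filter only through their marrow MP values (99885_at, 92972_at, 93638_s_at and Ighg3 93927_f_at), which leaves 36. All of them but 92972_at are also counted in the 34 without overlap. Unadjusted limma p-values gave 41 lower and 0 higher. Between the SP populations 17 of 64 were lower in muscle and 2 higher, against 21.2% lower and 17.1% higher of all probe sets. Of the 17, 3 had no overlap, a count for which no share over all probe sets was taken. Another limit is that 2 of the 17 (Ighg3 97008_f_at and Igkv2-112) passed the filter only with their marrow SP values. The median member difference was -0.91 between MP and -0.34 between SP populations, where the medians of all probe sets were -0.14 and -0.11. In MP cells the lower members were 10 of 20 heavy constant, 2 of 4 heavy variable, 18 of 29 kappa and 1 of 2 lambda probe sets, both mixed ones, all 6 surrogate light chain ones and Jchain. These counts include the 4 carried through the filter by their marrow MP values. In SP cells the lower members were 5 heavy constant, 11 kappa and 1 surrogate light chain probe set, with the 2 carried by marrow SP values included. In both populations 15 members were lower in muscle, and no share over all probe sets was taken for them. The count for SP cells fell to 10 without muscle SP 4 and to 11 without bone marrow SP 1, and was 8 in a fit of only the 2 groups.

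Ighm 93584_at differed between muscle and marrow by -3.05 ± 0.34 (8.29-fold, adjusted p = 1.65e-07) in SP cells and -3.42 ± 0.34 (10.7-fold, adjusted p = 1.85e-08) in MP cells, and 93583_s_at by -1.95 ± 0.27 (3.85-fold, adjusted p = 3.69e-06) and -2.67 ± 0.27 (6.38-fold, adjusted p = 2.08e-08). For kappa 93086_at the differences were -2.92 ± 0.63 (7.56-fold, adjusted p = 0.000667) in SP and -3.57 ± 0.63 (11.9-fold, adjusted p = 5.64e-05) in MP cells, and for Igkv6-23 102156_f_at -2.31 ± 0.52 (4.96-fold, adjusted p = 0.00106) and -3.77 ± 0.52 (13.6-fold, adjusted p = 2.44e-06). The SP groups of both kappa probe sets overlapped through bone marrow SP 5, and without that array the SP folds were 12.8 and 7.95. Jchain was lower in muscle MP than marrow MP, at -2.25 ± 0.23 (4.74-fold, adjusted p = 3.04e-08), as were Igll1 99429_at, at -2.18 ± 0.33 (4.54-fold, adjusted p = 7.14e-06), and Vpreb3 162208_f_at, at -2.69 ± 0.32 (6.43-fold, adjusted p = 2.49e-07). In SP cells Jchain differed by -0.23 ± 0.23 (adjusted p = 0.481), and Vpreb3 162208_f_at was at the floor on all muscle SP arrays, at least 2.28-fold below marrow SP (adjusted p = 0.00452). The other variable genes with large differences were a probe set shared by Igk and Asb2 (101633_at), lower in muscle MP at -2.13 ± 0.46 (4.39-fold, adjusted p = 0.000547), and Ighv1-54 (97563_f_at) at -1.75 ± 0.26 (3.36-fold, adjusted p = 7.11e-06). Igkv1-135 (101348_at) read 8.70, 7.88, 7.91, 7.88 and 8.30 in muscle SP and 9.83, 9.19, 8.81, 9.24 and 9.36 in marrow SP, without overlap, a difference of -1.15 ± 0.26 (2.23-fold, adjusted p = 0.00109).

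A pair of exceptions ran the other way between SP cells. Ighm 99420_at read 7.53, 7.32, 7.47, 7.75 and 7.997 in muscle SP and 6.71, 6.71, 6.71, 6.71 and 7.05 in marrow SP, without overlap, and was higher in muscle by 0.83 ± 0.30 (1.78-fold, adjusted p = 0.0312). Igkv4-59 101751_f_at read 8.32, 7.90, 7.77, 7.82 and 8.28 in muscle SP and 7.78, 6.71, 7.34, 6.71 and 7.46 in marrow SP, with overlap on 1 marrow array, and was higher by 0.82 ± 0.22 (1.76-fold, adjusted p = 0.00482). The call of 99420_at was lost in 7 of 20 alternatives, 6 of which left out a single array, and that of 101751_f_at in 2 of 21, with no further normalization and with the floor at the 40th percentile.

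Whether the SP to MP difference itself differed between the tissues was tested as the muscle difference minus the marrow difference. It was higher for 11 of 64 immunoglobulin probe sets and lower for 0, against 8.69% and 9.85% of all probe sets, and unadjusted limma p-values gave 15 higher and 0 lower. The 11 include Ighm 99885_at and the lambda probe set 93638_s_at, which passed the filter only through their marrow MP arrays, so their calls are no support. The median over the 64 was 0.47 and over all probe sets 0.02. Jchain had the largest value, 2.02 ± 0.33 (adjusted p = 0.000143), followed by Igll1 99429_at with 1.86 ± 0.46 (adjusted p = 0.00645) and Ighm 100362_f_at with 1.69 ± 0.50 (adjusted p = 0.0203). Ighm 100362_f_at read 8.99, 8.65, 8.31, 8.41 and 8.91 in muscle SP and 7.54, 8.35, 8.33, 7.42 and 7.91 in muscle MP, and 9.41, 8.40, 8.82, 6.71 and 9.27 in marrow SP and 9.15, 9.63, 9.32, 9.65 and 9.61 in marrow MP. Vpreb3 162208_f_at was also called, at 1.49 ± 0.45 (adjusted p = 0.0226). Its muscle values lay at or near the floor, at 7.05 or less, so this value mostly carries the marrow difference. The other surrogate light chain probe sets had values of 0.72 to 1.17 and did not pass. Of the 11, 9 were among those lower in marrow SP, with 99885_at and 93638_s_at counted, and 0 were called between SP and MP in muscle. The 4 Ighm and kappa probe sets lower in SP of both tissues were not called here, with values of 0.37 ± 0.49 for 93584_at, 0.73 ± 0.38 for 93583_s_at, 0.65 ± 0.89 for 93086_at and 1.46 ± 0.74 for 102156_f_at. With no further normalization 5 of the 11 were called, and Ighm 100362_f_at and Vpreb3 162208_f_at were not among them.

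Genes of the B lineage outside the antibody loci were read beside the members. Of 12 B cell markers tested, 0 were higher and 3 lower in muscle SP than muscle MP, and 12 of 12 were lower in marrow SP than marrow MP. The 3 were Blnk, an adaptor of the B cell receptor, with -2.63 ± 0.29 (adjusted p = 1.92e-06), Cd79b, a signalling chain of that receptor, with -1.11 ± 0.29 (adjusted p = 0.0145), and Ms4a1, the CD20 surface protein, with -0.90 ± 0.23 (adjusted p = 0.0116). Cd79a, the partner chain of Cd79b, differed by 0.35 ± 0.28 (adjusted p = 0.497) in muscle and -0.85 ± 0.28 (adjusted p = 0.0252) in marrow. The mean of the 13 markers on the array was 7.12 to 7.50 on muscle SP arrays, 7.73 to 8.25 on muscle MP, 8.04 to 8.97 on marrow SP and 10.7 to 11.3 on marrow MP. Cd22, Cr2 and Ly6d were at the floor on all muscle SP arrays, and Cr2 also in muscle MP and marrow SP. Bone marrow SP 5, low for the kappa probe sets, had the lowest mean of its group, 8.04. This order of the groups was also that of the Ighm 93584_at means, and the part of the B cell markers in the immunoglobulin results was not tested.

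**Figure D4:**
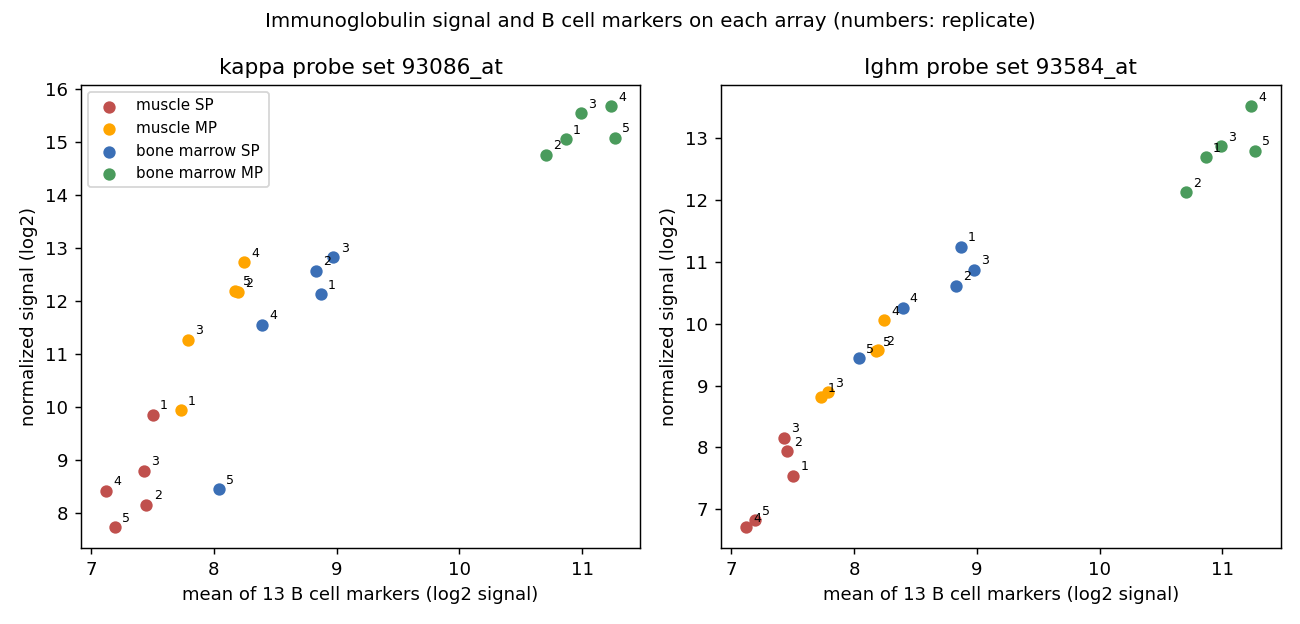
The plot sets the log2 signal of Ighm 93584_at and kappa 93086_at on each of the 20 arrays (vertical axis) against the mean log2 level of the 13 B cell markers on the same array (horizontal axis). The marrow MP arrays lie at the upper right with marker means of 10.7 to 11.3, the muscle SP arrays at the lower left with 7.12 to 7.50, and points of one array share its library.

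The machinery that assembles and senses antibody genes was read by 4 further lists. Each value is the SP minus MP difference. Of 6 V(D)J recombination genes tested, 0 passed in muscle (0 also at an unadjusted limma p under 0.05), and in marrow SP Dntt, the enzyme that adds bases at junctions, was lower, at -1.49 ± 0.37 (adjusted p = 0.00333), and Prkdc, a repair kinase, was higher, at 1.00 ± 0.33 (adjusted p = 0.0231). Rag1, part of the recombinase, differed by -0.57 ± 0.38 (adjusted p = 0.294) in marrow, and Rag2 was at the floor on all 20 arrays. Of 11 B cell receptor signalling genes, 10 were lower in marrow SP, among them Cd22 with -3.35 ± 0.18 (adjusted p = 1.98e-11) and Btk with -2.04 ± 0.30 (adjusted p = 2.1e-05), and in muscle 2 were lower and Plcg2, a phospholipase, was higher with 0.95 ± 0.29 (adjusted p = 0.0347). Of 11 B cell transcription factors, 1 was lower and 2 higher in muscle SP, and 4 were lower and 1 higher in marrow SP. Pou2af1, a coactivator of octamer-binding factors, was lower in SP in both tissues, at -1.35 ± 0.30 (adjusted p = 0.00401) in muscle and -3.32 ± 0.30 (adjusted p = 2.9e-08) in marrow. Pax5, which fixes B cell identity, was lower in marrow SP, at -1.78 ± 0.31 (adjusted p = 0.000147), and differed by -0.05 ± 0.31 (adjusted p = 0.967) in muscle. Ebf1, an early B cell factor that other cells also express, was higher in muscle SP, at 0.96 ± 0.23 (adjusted p = 0.00851), and lower in marrow SP, at -1.37 ± 0.23 (adjusted p = 0.00011). Irf8, a regulator that myeloid cells also express, was the other one higher in muscle SP, at 0.98 ± 0.28 (adjusted p = 0.0243), and Pou2f2, the octamer-binding factor Oct-2, was the one higher in marrow SP, at 1.48 ± 0.32 (adjusted p = 0.00101). Of 7 plasma cell and class switching genes, 1 was lower in muscle SP and 3 in marrow SP. Irf4, a regulator of plasma cell formation, was lower in SP, at -1.74 ± 0.47 (adjusted p = 0.0185) in muscle and -2.58 ± 0.47 (adjusted p = 0.000224) in marrow, whereas Prdm1 and Xbp1, other regulators of secretion, did not pass, with 0.51 ± 0.25 (adjusted p = 0.136) and 0.29 ± 0.27 (adjusted p = 0.481) in marrow. Of 8 T cell markers, another lymphoid list, 7 were higher in marrow SP than marrow MP and 0 lower. The lists overlap, since Cd79a, Cd79b, Blnk, Cd22, Blk and Spib stand on 2 of them.

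Of the 20 probe sets not tested, 8 were at the floor on all 20 arrays and 12 were above it on 1 to 4 arrays. They were 8 heavy constant, 5 heavy variable and 7 kappa probe sets. The 3 probe sets of Ighv14-2 alone (92740_at, 92741_g_at and 98974_at), a heavy variable gene, were above the floor on marrow MP arrays and nowhere else. The first read 6.98, 6.71, 6.80, 7.60 and 7.09 there, the second 8.07, 6.71, 7.81, 7.89 and 6.71 and the third 6.79, 6.71, 7.17, 6.71 and 7.41. Igkv10-96 (102155_f_at) was above the floor on 1 marrow MP array, at 7.00. Only 3 of the 20 rose above the floor on any muscle array. Counting all 84 members, 25 were at the floor on every muscle SP array, 28 on every muscle MP array, 15 on every marrow SP array and 11 on every marrow MP array. Of the tested probe sets, 11 of 29 without a suffix, 8 of 32 with a suffix for shared sequence (f, g or s) and 0 of 3 with the suffix r were lower in marrow SP, and 2, 2 and 0 in muscle SP. The marrow counts include 99885_at and 92972_at without a suffix and 93638_s_at with one. These passed the filter only through their marrow MP arrays, so their calls are no support.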

How the data were processed

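Total RNA of sorted cells had been hybridised to 20 Affymetrix arrays, 5 a group, with groups taken from the sample titles. The deposited values are linear signal intensities, scaled by the authors to a common level, since the mean after trimming 2% at each end was 1501 on all arrays. The sources used here do not give the software or background correction, and a background step changes folds of dim probe sets. The 66 control probe sets were left out and the other 12422 quantile normalized, which removes overall differences in RNA content. Values below the 25th percentile (105 signal) were raised to it, and the 10310 probe sets that exceeded it on 5 or more of the 20 arrays were tested on log2 values with limma 3.58.1 in R 4.3.3, all groups in 1 fit, two-sided, with Benjamini-Hochberg adjustment over all of them and a threshold of 0.05. The number of arrays limits the precision. The calculation was tested on simulated data. A fold is given as "at least" where every array of the dimmer group was at the floor. Gene names come from the platform annotation, with the brightest single-symbol probe set for genes outside the immunoglobulins. Figures used Python 3.11.15 with matplotlib 3.10.9.

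The members, gene lists and tests were chosen with earlier results of these data known. Named by rule were all probe sets of Igll1, Vpreb genes and Jchain, all with a constant gene symbol, the 3 largest changes each way of variable gene probe sets without overlap in each of the first 4 comparisons, and the 3 largest differences between tissues. Values on every array are in the text for those the results turn on and in the heatmap for the other tested ones. Alternatives were other scalings, floors and filters, a pseudocount, trend and robust options, the replicate number as a block, the GAPDH ratio as a covariate, only the groups compared and each array left out. A fit without muscle SP 1 and bone marrow SP 5 was added after seeing the data.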

Additional observations from a re-analysis of the deposited data

Results flagged for a closer look

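A single array stood apart from its group for 2 named probe sets, by the ratio of its gap to the nearest array over the whole range of the group, against a critical value of 0.71 for 5 arrays. For Igkv6-23 102156_f_at, bone marrow SP 5 was at the floor of 6.71 below the other 4 arrays (ratio 0.749). For Igha 161486_f_at, bone marrow MP 2 was the highest of its group at 7.73 (ratio 0.711). Groups with fewer than 4 arrays above the floor were left out, since values at the floor have no order. Of the 117 remaining groups of named probe sets, 2 stood out, and chance gives about 1 in 20.

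For 11 probe sets the signed SP minus MP difference was less negative, or more positive, in muscle than in bone marrow by the test of the difference between tissues. In log2 units the muscle minus marrow value was 2.02 for Jchain 102372_at and 1.86 for Igll1 99429_at. It was 1.69 for Ighm 100362_f_at and 1.07 for Ighm 99885_at. For the kappa variable gene Igkv14-111 100682_f_at it was 1.54, and for Igkv4-59 101751_f_at 1.53. It was 1.49 for Vpreb3 162208_f_at and 1.28 for the heavy variable gene Ighv1-54 97563_f_at. The probe set labelled Igk, 101641_at, gave 1.06 and the one shared by Iglc1 and Iglv1, 93638_s_at, 1.03. For 102585_f_at, shared by Igkv4-59, Igkv4-70 and Igkc, it was 1.00 with a limma adjusted p of 0.049, and this call was lost in 22 of 31 alternatives. For 99885_at and 93638_s_at all 10 muscle arrays were at the floor, so their values carry the marrow difference alone, and both passed the filter on low values only through marrow MP arrays.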

How the results depend on the processing

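Over 101 member comparisons, 2292 values under the alternatives kept the call in 2106 cases, lost it in 176, gained it in 10 and changed sign in 0. With no further normalization, bone marrow SP against MP had 4 members higher and 11 lower, muscle SP against marrow SP 1 higher, and the difference between tissues 5 higher. Median scaling gave 1 higher in muscle SP against MP (Igkv14-111). With the floor at the 40th percentile, muscle SP against marrow SP had 0 higher and 11 lower, and with no filter 1 higher. A filter at the median, which tests fewer members, gave 1 higher in muscle, 11 lower in marrow, 0 higher between SP groups, 23 lower between MP groups and 7 higher in the difference between tissues. Fitting only the groups compared gave 8 lower between SP groups. The causes were not tested where the construction does not give them.

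Leaving out each array in turn, muscle SP against MP had 0 to 1 higher and 4 lower, marrow SP against MP 0 to 1 higher and 15 to 23 lower, muscle SP against marrow SP 1 to 2 higher and 10 to 22 lower, muscle MP against marrow MP 36 to 40 lower, and the difference between tissues 10 to 13 higher. The 22 came without muscle SP 1. Without both muscle SP 1 and bone marrow SP 5, an alternative chosen after seeing the data, 4, 20, 17 and 40 members were lower in the first 4 comparisons and 9 higher in the difference between tissues. The replicate block gave 1 higher (Igkv14-111) and 4 lower in muscle, 1 higher (Igkv1-135) and 20 lower in marrow. Deviations of same-numbered arrays had correlations of -0.14 to 0.30, and those of replicate 1 were 0.21 to 0.30 in all 4 comparisons. No correlations of different-numbered arrays were taken for reference, so these values do not settle whether the numbers are a pairing. The labels state no pairing, and the numbers were a block only as an alternative. Quantile normalization, the floor and the 5 arrays a group limit what dim probe sets can show, and p-values cover these samples only.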
